A study of Mus musculus with 12 samples.

Results

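The casein genes of the mouse are Csn1s1, Csn1s2a, Csn1s2b, Csn2 and Csn3, and they were followed across 12 single-colour Agilent gene expression arrays. They were found by matching the transcript accession that the array design gives for each probe to a table of mouse genes. This gave 5 genes of 17178 with a symbol, each with 1 probe and 1 spot per array. Their levels were compared between 4 groups of 3 arrays each. Reprogrammed lung had replicates 1, 3 and 4, reprogrammed mammary 1, 2 and 3, adult lung 1, 2 and 3, and adult mammary 1, 2 and 4.

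All 4 groups are labelled as mouse epithelial cells, and the study asked whether stroma can redirect adult cells to rebuild another organ. Per the labels' protocol, adult donor cells came from females aged 10 weeks, whose lungs and mammary glands were digested with trypsin and collagenase and enriched by repeated slow centrifugation. No cell sort is stated, so other cells of the tissue may remain in a sample. The cells were then suspended for transplantation. For a reprogrammed group, the labels do not say whether lung or mammary names the donor cells or the tissue that formed, nor do they name strains, hosts or stroma. Nothing in them ties the arrays of 1 group to separate animals either, so p-values here measure only the spread between arrays, which may be technical.

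Caseins are the main proteins of milk. The calcium-sensitive caseins, alpha, beta and their relatives, carry phosphate groups that bind calcium phosphate, and kappa casein coats the surface of the casein micelle and keeps it in suspension. Secretory cells of the mammary alveolus make them under prolactin, glucocorticoid and insulin, with the transcription factor STAT5 acting on casein promoters. In the virgin gland their transcripts are present at a lower level than in lactation, and the lung is not known as a source of milk protein.

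Of the 5 caseins, 3 matched the RefSeq promoter table used here, and these 3 promoters are shown because the STAT binding motif TTCNNNGAA is a classic feature of casein promoters. The motif reads the same on both strands. Each sequence is the 250 bases before the start of the gene, from RefSeq on GRCm38.p6, with the motif in capitals where it occurs. Csn1s1 lies on the plus strand (chr5:87665958-87666207), Csn2 on the minus strand (chr5:87699426-87699675) and Csn1s2a on the plus strand (chr5:87774200-87774449).
Csn1s1: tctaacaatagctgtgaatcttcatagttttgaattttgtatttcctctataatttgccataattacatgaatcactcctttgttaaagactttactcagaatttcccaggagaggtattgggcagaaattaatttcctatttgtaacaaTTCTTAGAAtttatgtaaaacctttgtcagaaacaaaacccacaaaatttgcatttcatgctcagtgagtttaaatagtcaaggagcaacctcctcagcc
Csn2: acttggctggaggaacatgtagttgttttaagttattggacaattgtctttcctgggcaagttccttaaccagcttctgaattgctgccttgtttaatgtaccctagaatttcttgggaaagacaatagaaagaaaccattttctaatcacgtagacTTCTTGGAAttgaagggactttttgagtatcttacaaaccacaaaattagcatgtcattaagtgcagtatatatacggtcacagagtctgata
Csn1s2a: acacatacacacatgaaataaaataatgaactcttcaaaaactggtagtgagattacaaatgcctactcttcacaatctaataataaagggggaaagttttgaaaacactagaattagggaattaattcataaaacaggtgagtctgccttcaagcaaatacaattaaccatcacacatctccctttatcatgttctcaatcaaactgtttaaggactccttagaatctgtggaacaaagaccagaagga

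In Csn1s1 the motif reads TTCTTAGAA and begins at position -100 relative to the start, and in Csn2 it reads TTCTTGGAA and begins at position -93. Csn1s2a holds TTCTTAGAA at position 21, in the 50 bases after the start that are not printed. The motif was present in 2726 of 32851 promoter windows of 300 bases, or 8.30%, and in all 3 casein windows searched. A match in letters is a description of the sequence and not of binding. No promoter is printed here for Csn1s2b or Csn3.

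Each array was scaled to its 75th percentile, a signal between 303 and 622, and no spot was saturated. Between 71.7% and 77.4% of probes were well above background on 10 arrays, against 91.1% for reprogrammed lung replicate 1 and 89.0% for adult mammary replicate 4. Markers shared by all epithelia, such as Epcam and Cdh1, were above background on every array for 8 of 8 genes. Their mean log2 level ran from 0.81 to 3.25 in reprogrammed lung, from 3.46 to 3.76 in reprogrammed mammary, from 0.44 to 0.90 in adult lung and from 3.63 to 3.86 in adult mammary. The lowest of the reprogrammed lung arrays was replicate 1, which lay in the range of adult lung. Markers of the lung's alveolar type II cells, 7 genes such as Sftpc, averaged between -2.36 and -2.01 in reprogrammed lung, between -2.86 and -2.46 in reprogrammed mammary, between 3.27 and 3.69 in adult lung and between -3.09 and -2.08 in adult mammary. In reprogrammed lung, as in each of the mammary groups, 1 of these 7 stayed at background on every array. Markers of hormone-sensing mammary cells, 6 genes such as Esr1, averaged between -0.03 and 1.81 in reprogrammed lung, between 1.11 and 2.20 in reprogrammed mammary, between -3.15 and -3.06 in adult lung and between 2.09 and 2.71 in adult mammary. Both adult groups thus had the markers of their labelled tissue, while the reprogrammed lung arrays held type II markers at a level near that of both mammary groups.

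Csn1s1 encodes alpha-S1 casein, a calcium-sensitive casein that other caseins need for efficient export from the endoplasmic reticulum. Its processed signal was 292, 16102 and 277 on reprogrammed lung replicates 1, 3 and 4, and 3652, 1400 and 1264 on the 3 reprogrammed mammary arrays. It was 2.75, 1.87 and 1.88 on the adult lung arrays, and 244, 14108 and 3235 on adult mammary replicates 1, 2 and 4. No adult lung array was above background, every other array was, and the other 3 groups overlapped one another.

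Relative to adult lung, Csn1s1 was at least 87.1-fold higher in reprogrammed lung (log2 8.65 ± 1.60 SE, limma adjusted p = 0.00328, 3 arrays each). It was at least 131-fold higher in reprogrammed mammary than in adult lung (log2 9.25 ± 1.60 SE, limma adjusted p = 0.00195). In adult lung it was at least 149-fold lower than in adult mammary (log2 -9.43 ± 1.60 SE, limma adjusted p = 0.00174). The bound for reprogrammed lung was 22.4-fold without replicate 3, 149-fold without replicate 1 and 199-fold without replicate 4. That for adult lung against adult mammary was 67.2-fold without adult mammary replicate 2 and 419-fold without replicate 1, and Csn1s1 passed in each case. These bounds set the background of each adult lung array to the lowest signal marked as above background on that array, or to the probe's own signal where that was higher, and log2 levels are relative to the array's 75th percentile. The bounds compare group means and do not allow for the spread between arrays, here and for the other genes. The fitted log2 differences from adult lung use its spots as measured at background, here and for the other caseins, so their size is not a bound.

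Csn1s2a encodes an alpha-S2-like casein, also known as gamma casein. Its signal was 441, 38648 and 272 on reprogrammed lung replicates 1, 3 and 4, and 7457, 2698 and 2190 on the reprogrammed mammary arrays. On the adult lung arrays it was 2.88, 2.20 and 2.04, and on adult mammary replicates 1, 2 and 4 it was 259, 14504 and 1345. As for Csn1s1, adult lung lay apart at background, and the ranges of the other 3 groups overlapped.

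Csn1s2a was at least 133-fold higher in reprogrammed lung than in adult lung (log2 9.13 ± 1.76 SE, limma adjusted p = 0.00414). The bound was 249-fold for reprogrammed mammary over adult lung (log2 10.03 ± 1.76 SE, limma adjusted p = 0.0021). Adult lung was at least 114-fold lower than adult mammary (log2 -8.91 ± 1.76 SE, limma adjusted p = 0.00404). The bound for reprogrammed lung was 27.2-fold without replicate 3, 229-fold without replicate 1 and 378-fold without replicate 4. That for adult lung against adult mammary was 44.6-fold without adult mammary replicate 2 and 274-fold without replicate 1, and Csn1s2a passed in each case.

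Csn2 encodes beta casein, the calcium-sensitive casein most often used as a reporter of the lactogenic response in mammary cells. Its signal was 40.8, 7312 and 17.2 on reprogrammed lung replicates 1, 3 and 4, and 539, 105 and 89.1 on the reprogrammed mammary arrays. It was 2.67, 1.99 and 1.89 on the adult lung arrays, and 47.5, 3660 and 424 on adult mammary replicates 1, 2 and 4. Adult lung was again the only group with no array above background, but a single reprogrammed lung array, replicate 3, stood far above the others of its group.

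By group means, Csn2 was at least 27.9-fold lower in adult lung than in adult mammary, or at least 10.7-fold without adult mammary replicate 2. The log2 difference was -7.00 ± 2.08 SE (95% interval -11.61 to -2.38, limma adjusted p = 0.0287). This call was lost without any one of the 3 adult lung arrays, adult mammary replicate 2 or adult mammary replicate 4, where the difference was -7.15 to -5.62 and the limma adjusted p 0.0689 to 0.109. Its differences from adult lung did not pass the threshold of 0.05 in reprogrammed lung (log2 5.98, 95% interval 1.36 to 10.59, limma adjusted p = 0.0624). The same was true of reprogrammed mammary (log2 5.79, 95% interval 1.17 to 10.40, limma adjusted p = 0.0641). All 9 pairs of arrays had the reprogrammed array above the adult lung array in both cases. Without reprogrammed lung replicate 3, the difference of reprogrammed lung from adult lung was 3.25 (limma adjusted p = 0.145), whereas that of reprogrammed mammary passed (limma adjusted p = 0.00863). Without reprogrammed lung replicate 4 both passed, with 7.84 for reprogrammed lung (limma adjusted p = 0.0208) and 5.79 for reprogrammed mammary (limma adjusted p = 0.0391). Csn2 in reprogrammed mammary also passed with array weights (limma adjusted p = 0.00205), with the 2 groups fitted alone (limma adjusted p = 0.000996) and without the arrays of slide 1 (limma adjusted p = 0.0133), and in reprogrammed lung with array weights (limma adjusted p = 0.0125).

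Csn1s2b encodes a further alpha-S2-like casein, also known as delta casein, and its probe was dim. The signal was 10.4, 63.4 and 14.2 on reprogrammed lung replicates 1, 3 and 4, with replicate 1 not above background. In reprogrammed mammary it was 3.04, 2.67 and 23.3, of which only replicate 3 was above background. In adult lung it was 2.89, 4.50 and 1.95, none of them above background, and in adult mammary 15.3, 4.20 and 11.3, with replicate 2 below background.

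No group had all 3 arrays of Csn1s2b above background, so the gene did not pass the filter and was not tested. As measured, the lowest reprogrammed lung array lay above the highest adult lung array, with an exact permutation p of 0.1, the smallest that 3 against 3 arrays allow. Reprogrammed lung replicate 1 and all 3 adult lung arrays were not above background, so the size of this difference has no lower bound. Adult mammary replicate 2, which had the group's highest Csn1s1, Csn1s2a and Csn2, had its lowest Csn1s2b.

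Csn3 encodes kappa casein. Its signal was 1340, 11529 and 8449 on reprogrammed lung replicates 1, 3 and 4, and 16934, 10918 and 12329 on the reprogrammed mammary arrays. On the adult lung arrays it was 2.70, 1.93 and 16.9, and on adult mammary replicates 1, 2 and 4 it was 3418, 7643 and 9542. Adult lung replicate 3 was the only adult lung array above background for any casein, and all 3 reprogrammed mammary arrays were higher than all 3 adult mammary arrays.

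Csn3 was at least 331-fold higher in reprogrammed lung than in adult lung (log2 9.81 ± 0.84 SE, limma adjusted p = 4.1e-05). It was at least 758-fold higher in reprogrammed mammary than in adult lung (log2 11.01 ± 0.84 SE, limma adjusted p = 1.65e-05). In adult lung it was at least 342-fold lower than in adult mammary (log2 -9.86 ± 0.84 SE, limma adjusted p = 3.22e-05). Its standard error was the smallest of the 4 tested caseins. The bound for reprogrammed lung was 216-fold without replicate 3 and 568-fold without replicate 1, and Csn3 passed in both cases. For reprogrammed mammary over adult mammary the difference was 1.15 (95% interval -0.71 to 3.00, limma adjusted p = 0.683, exact permutation p = 0.1), so the separation of these arrays did not pass the test.

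**Figure D1:**
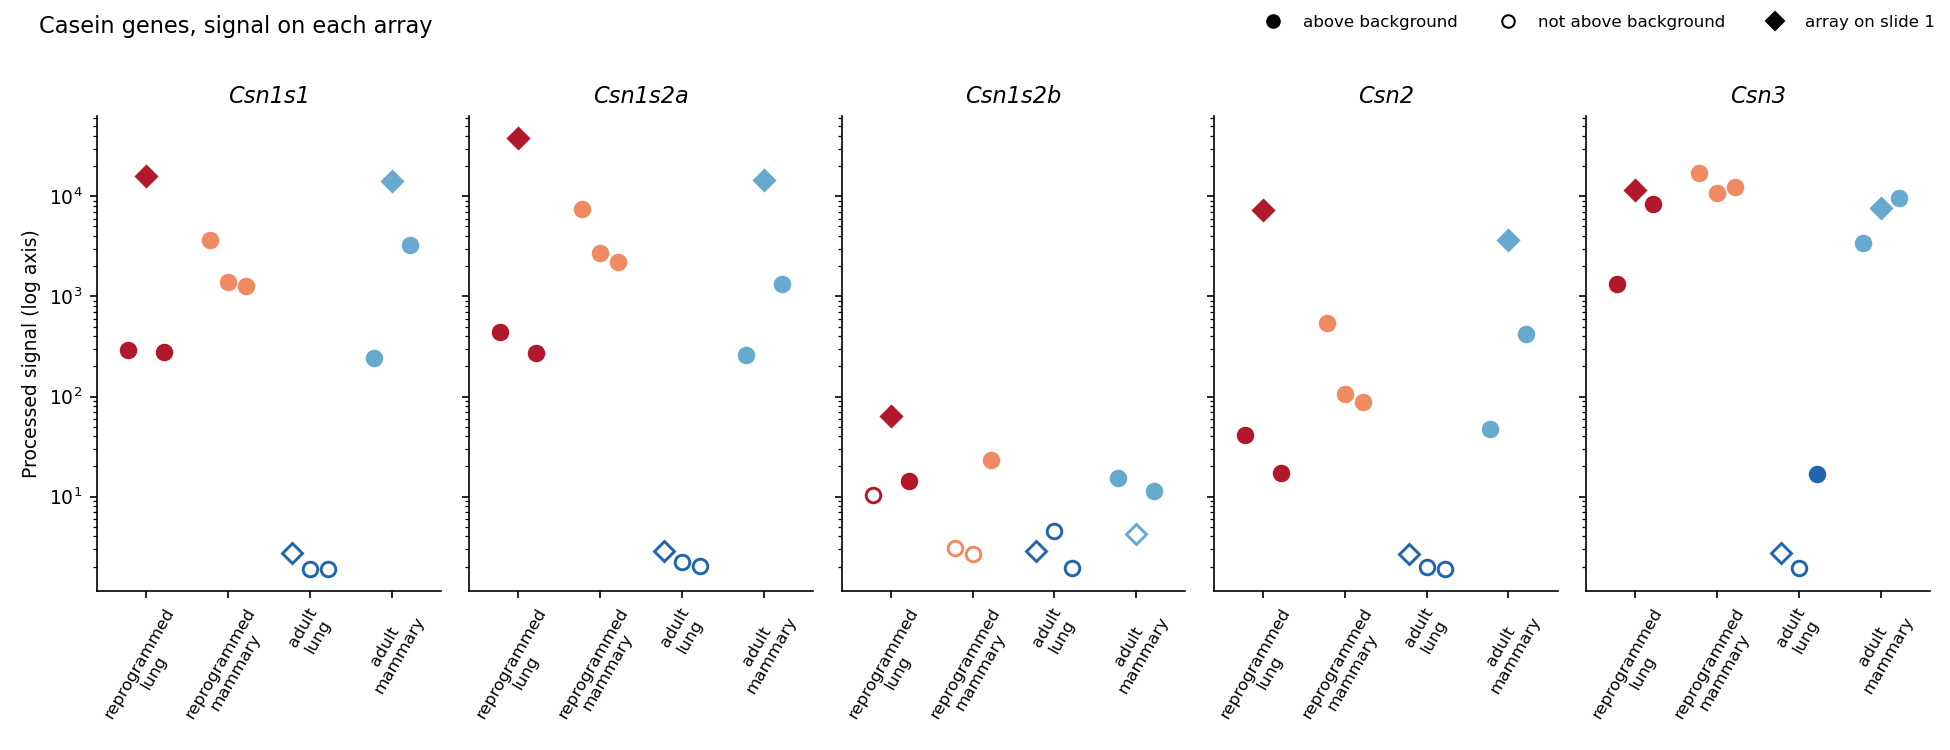
Processed signal (log axis) of the 5 casein genes on each of 12 arrays, 1 panel a gene, with reprogrammed lung, reprogrammed mammary, adult lung and adult mammary from left to right. Filled symbols are above background, open ones are not, and diamonds are the 3 arrays of slide 1. Adult lung lies at or near background in every panel, and reprogrammed lung replicate 3 reaches 16102 for Csn1s1 against 292 and 277 on the other arrays of its group.

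Counted over genes, 4 of the 5 caseins were tested, each because it was above background on every array of at least 1 group. A gene that passes this filter through groups where it is high has to differ from a group at background, so the counts only describe the 4 genes. In reprogrammed lung against adult lung, 3 of the 4 were higher and 0 lower, where 13.7% of the 31767 probes tested were higher and 9.88% lower. In reprogrammed mammary against adult lung, 3 were higher and 0 lower, where 14.6% of all tested probes were higher and 12.1% lower. In adult lung against adult mammary, 4 of 4 were lower and 0 higher, where 16.4% of all tested probes were lower and 12.7% higher. These 3 comparisons share arrays, so they are not independent of each other.

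The median log2 difference over all tested probes was 0.09 for reprogrammed lung minus adult lung, 0.02 for reprogrammed mammary minus adult lung and -0.02 for adult lung minus adult mammary. Since pan-epithelial markers were also lower in adult lung, the caseins were compared relative to the mean of those markers on each array. Reprogrammed lung then exceeded adult lung by 6.95 for Csn1s1, 7.42 for Csn1s2a, 4.27 for Csn2 and 8.10 for Csn3, with the same genes past limma's threshold. In these bulk samples, fewer casein-making cells and less casein transcript per cell cannot be told apart.

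Between the 3 groups that held casein, no casein passed limma's test. In reprogrammed lung against adult mammary, the differences were -0.77 for Csn1s1, 0.22 for Csn1s2a, -1.02 for Csn2 and -0.05 for Csn3. The 95% intervals ran from -4.33 to 2.78 for Csn1s1, from -3.69 to 4.13 for Csn1s2a, from -5.63 to 3.59 for Csn2 and from -1.91 to 1.81 for Csn3. Their limma adjusted p-values lay between 0.848 and 0.984, and 0.0189% of all tested probes passed in either direction. Differences of several log2 units thus lie inside these intervals for every casein but Csn3.

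In reprogrammed mammary against adult mammary, the differences were -0.18 for Csn1s1, 1.12 for Csn1s2a and -1.21 for Csn2, beside that of Csn3 above. The limma adjusted p-values were 0.984, 0.874 and 0.890, and 0.00315% of all tested probes passed. In reprogrammed lung against reprogrammed mammary, the differences were -0.59 for Csn1s1, -0.90 for Csn1s2a, 0.19 for Csn2 and -1.20 for Csn3. Again 0.00315% of all tested probes passed, and the lowest limma adjusted p of a casein was 0.685. Across these 3 comparisons the lowest unadjusted p of a casein was 0.182, so none passed at an unadjusted 0.05 either.

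**Figure D2:**
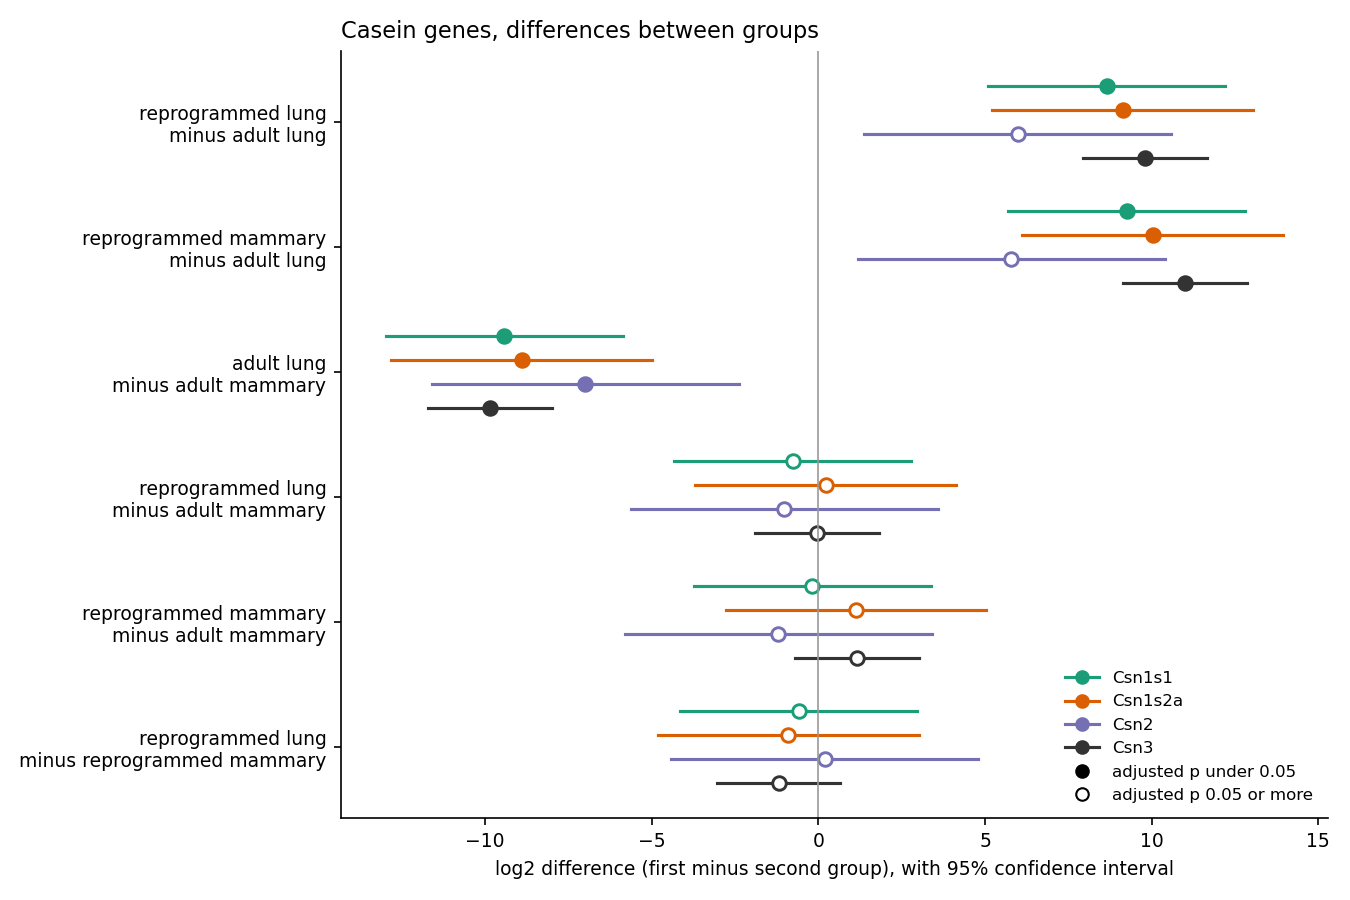
Differences in log2 level of the 4 tested caseins for 6 comparisons, each the first named group minus the second, with 95% confidence intervals. Filled points have an adjusted p under 0.05. The comparisons with adult lung lie 5.79 or more log2 units from 0, and those among the other 3 groups have intervals that include 0.

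The reprogrammed minus adult change was also compared between the organs named in the labels, again with adult lung spots mostly at background. The change of lung exceeded that of mammary by 8.66 ± 1.18 SE on the log2 scale for Csn3 (limma adjusted p = 0.00163). For Csn1s1 it did so by 8.83 ± 2.27 SE (limma adjusted p = 0.0292). The difference was 8.0 ± 2.50 SE for Csn1s2a (limma adjusted p = 0.0609) and 7.18 ± 2.94 SE for Csn2 (limma adjusted p = 0.141). Thus 2 of the 4 passed, both higher, where 7.7% of all tested probes did so. All 4 passed the filter through groups other than adult lung, so this count too only describes them. With adult lung spots raised to the lowest signal above background, the difference of the changes was at least 6.62 for Csn1s1, 5.93 for Csn1s2a, 4.99 for Csn2 and 7.22 for Csn3, values with no test of their own. Csn3 kept its call in all 26 alternatives and Csn1s1 in 12 of 26. That of Csn1s1 was lost without any one of the adult lung arrays, the reprogrammed mammary arrays or adult mammary replicates 2 and 4, where the difference was 7.69 to 9.34 and the limma adjusted p 0.0512 to 0.0685. Csn1s2a passed without reprogrammed lung replicate 1 or 4 or adult mammary replicate 1 (limma adjusted p = 0.0442, 0.0262 and 0.0430).

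The order of the group mean levels differed by gene, with adult lung last for the 4 tested caseins. Csn1s1 averaged 1.44 ± 3.42 in reprogrammed lung, 2.03 ± 0.88 in reprogrammed mammary, -7.21 ± 0.32 in adult lung and 2.21 ± 2.71 in adult mammary (log2 level, SD, n = 3 each), so adult mammary was first. Csn1s2a averaged 2.05 ± 4.03 in reprogrammed lung, 2.95 ± 0.99 in reprogrammed mammary, -7.08 ± 0.28 in adult lung and 1.83 ± 2.62 in adult mammary (SD, n = 3 each), so reprogrammed mammary was first. Csn2 averaged -1.22 ± 4.82 in reprogrammed lung, -1.41 ± 1.48 in reprogrammed mammary, -7.20 ± 0.28 in adult lung and -0.20 ± 2.85 in adult mammary (SD, n = 3 each), with adult mammary first. For these 3 genes, neighbours in the order above adult lung did not differ beyond their spread.

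Csn3 averaged 3.66 ± 1.43 in reprogrammed lung, 4.85 ± 0.36 in reprogrammed mammary, -6.15 ± 1.63 in adult lung and 3.71 ± 0.72 in adult mammary (log2 level, SD, n = 3 each). Reprogrammed mammary was first, followed by adult mammary and reprogrammed lung, which overlapped. Csn1s2b averaged -4.26 ± 1.42 in reprogrammed lung, -6.31 ± 1.71 in reprogrammed mammary, -6.75 ± 0.66 in adult lung and -5.74 ± 1.29 in adult mammary (SD, n = 3 each), but 7 of its 12 arrays were not above background, so its groups have no measured order. Levels can be set side by side between groups for 1 probe and not between probes, so no casein is ranked against another.

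The spread of Csn1s1, Csn1s2a and Csn2 was wide in the 3 groups that held casein. In reprogrammed lung the SD of Csn1s2a was 4.03 and that of Csn2 was 4.82, against a median of 0.49 over all tested probes, and 99.9% and 99.96% of tested probes had a smaller SD. In adult mammary the SDs were 2.71 for Csn1s1, 2.62 for Csn1s2a and 2.85 for Csn2, against a median of 0.29. In reprogrammed mammary they were 0.88, 0.99 and 1.48, against a median of 0.20, and 96.5%, 97.4% and 99.1% of tested probes had a smaller SD there, so the spread was narrower than in the other 2 groups but still wide for that group. Csn3 varied less than these, with SDs of 1.43 in reprogrammed lung, 0.36 in reprogrammed mammary and 0.72 in adult mammary. Still, 92.9%, 77.6% and 87.5% of tested probes had a smaller SD in those groups.

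The highest array over the lowest array of a group shows the same spread as a ratio. It was 425 for Csn2, 142 for Csn1s2a and 58.2 for Csn1s1 in reprogrammed lung, against 8.60 for Csn3. In adult mammary it was 77.1 for Csn2, 56.1 for Csn1s2a and 57.8 for Csn1s1, against 2.79 for Csn3. Reprogrammed mammary spanned only 6.04 for Csn2, 3.40 for Csn1s2a, 2.89 for Csn1s1 and 1.55 for Csn3. The array scaling differs, so scaled levels give other sizes. In reprogrammed lung they spanned 9.17 log2 units for Csn2, 7.59 for Csn1s2a, 6.30 for Csn1s1 and 2.79 for Csn3. In adult mammary they spanned 5.70, 5.24, 5.28 and 1.44.

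The highest arrays for Csn1s1, Csn1s2a and Csn2 in reprogrammed lung and adult mammary lay on 1 slide. Reprogrammed lung replicate 3 and adult mammary replicate 2 were both hybridised on slide 1, with adult lung replicate 1, which was at background for every casein. The highest reprogrammed mammary array of the 4 tested caseins, replicate 1, was on slide 4, and the highest adult mammary array of Csn3, replicate 4, was on slide 5. Within slide 1, with adult lung spots at background raised to the lowest signal above background, the reprogrammed lung array exceeded the adult lung array by at least 9.97 for Csn1s1, 11.24 for Csn1s2a, 8.84 for Csn2 and 9.49 for Csn3 (log2). The same bounds were 4.31, 4.29, 0.30 and 9.24 on slide 2, and 5.05, 5.64, 2.21 and 6.37 on slide 3. Reprogrammed lung was thus above adult lung on each of the 3 slides that held both groups, but for Csn2 on slide 2 the bound was near 0.

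Reprogrammed mammary replicate 2 exceeded adult lung replicate 2, on slide 2, by at least 6.88 for Csn1s1, 7.83 for Csn1s2a, 3.14 for Csn2 and 9.84 for Csn3. Adult lung replicate 1 was lower than adult mammary replicate 2, on slide 1, by at least 9.12 for Csn1s1, 9.16 for Csn1s2a, 7.17 for Csn2 and 8.23 for Csn3. The 2 slides that held reprogrammed mammary and adult mammary gave opposite signs for Csn1s1, at 3.82 on slide 4 and -1.49 on slide 5, and for Csn2, at 3.42 and -2.39. For Csn3 both slides had reprogrammed mammary higher, by 2.23 and 0.23.

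Without the 3 arrays of slide 1, an alternative chosen after the values were seen, reprogrammed lung exceeded adult lung by 6.87 for Csn1s1 (limma adjusted p = 0.0106), 6.98 for Csn1s2a (limma adjusted p = 0.00517) and 8.83 for Csn3 (limma adjusted p = 0.00377). These 3 calls held, with smaller differences. Csn2 differed by 3.40 (limma adjusted p = 0.134). The part of the slide in the peaks was not tested.

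Across arrays, Csn1s1, Csn1s2a and Csn2 moved closely together and Csn3 less so. Over the 9 arrays that were not adult lung, Csn1s1 and Csn2 had a Pearson r of 0.97 and a Spearman rho of 1, and Csn1s1 and Csn1s2a had 0.95 and 0.95. Csn3 had a Pearson r of 0.55 with Csn1s1, 0.56 with Csn1s2a and 0.40 with Csn2 over the same arrays. The points share group membership and slides, and these values are descriptions. On reprogrammed lung replicate 4, Csn3 was closer to replicate 3 than to replicate 1, while Csn1s1, Csn1s2a and Csn2 were the lowest of the group.

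The genes most like the caseins were sought as those with the highest Pearson r to the mean of the 4 centred casein profiles, among 14619 symbols with a value on every array. Over the 9 arrays that were not adult lung, Car6 led with r = 0.983, followed by Glrx5 (0.964), Faxc (0.962), Cramp1l (0.949) and Rasa1 (0.945). Over all 12 arrays Eif3g had 0.983, Car6 0.98, Smyd2 0.979, Faxc 0.976 and Enpp3 0.976. Car6 and Faxc were on both lists. The range of Eif3g was narrow, with an SD of 0.27 log2 units over the arrays against 2.23 for Car6.

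Car6 encodes carbonic anhydrase VI, a secreted isoenzyme found in saliva and milk. Its signal was 62.2, 580 and 84.0 on reprogrammed lung replicates 1, 3 and 4, and 211, 172 and 168 on the reprogrammed mammary arrays. It was 8.11, 6.82 and 2.92 on adult lung, none above background, and 62.0, 470 and 152 on adult mammary replicates 1, 2 and 4. At the upper end, the order of the arrays within reprogrammed lung and adult mammary matched that of Csn1s1, Csn1s2a and Csn2, with replicate 3 and replicate 2 highest. Csn3 differed in adult mammary, where it was highest on replicate 4.

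**Figure D3:**
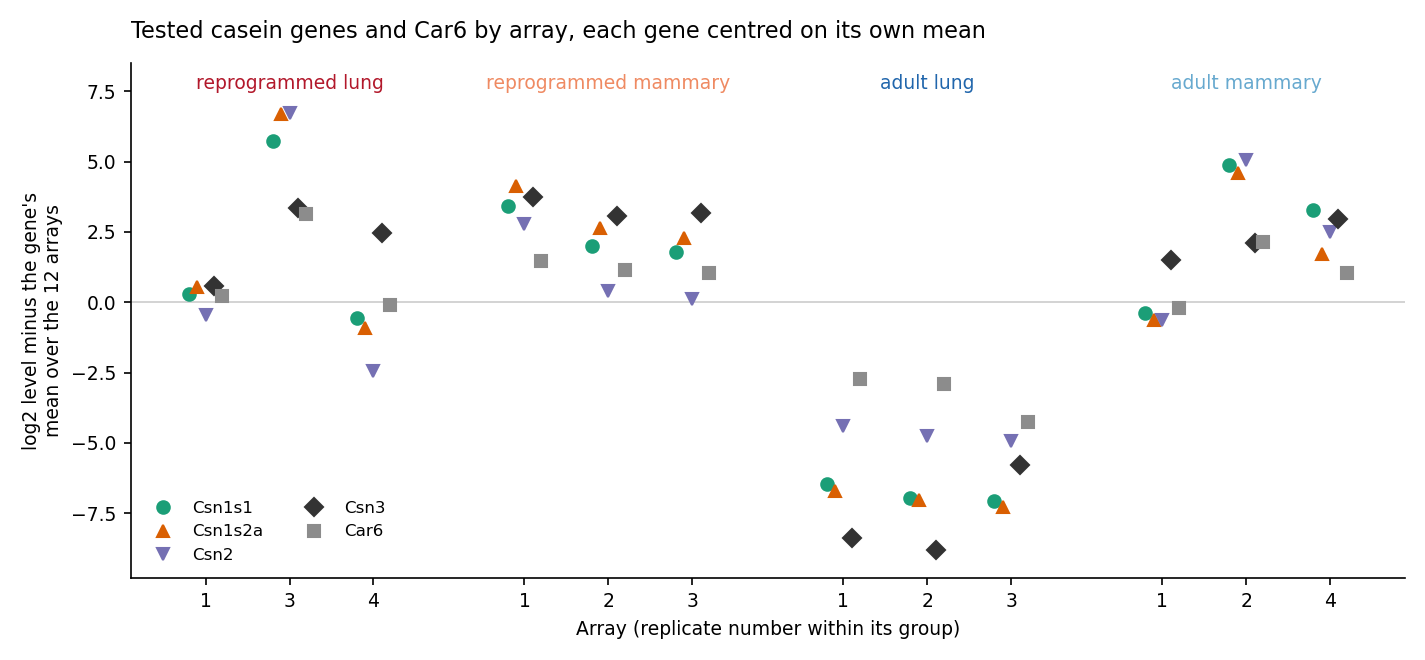
Log2 level of the 4 tested caseins and of Car6 on each array, with each gene's mean over the 12 arrays subtracted, by group and replicate number. Reprogrammed lung replicate 3 and adult mammary replicate 2 are the highest arrays of their groups for Csn1s1, Csn1s2a, Csn2 and Car6.

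The casein genes lie together on mouse chromosome 5, in the order Csn1s1, Csn2, Csn1s2a, Csn1s2b and Csn3 of the GRCm38.p6 gene table, with genes of saliva, tooth and sulfation in between and around. Of 16 neighbours in that table, 8 had a probe and only 2 were tested. Prr27 was above background on all 12 arrays and differed from adult lung by 0.11 in reprogrammed lung (limma adjusted p = 0.908) and -0.69 in reprogrammed mammary (limma adjusted p = 0.383). Sult1e1, the estrogen sulfotransferase, differed by 0.64 (limma adjusted p = 0.407) and 0.39 (limma adjusted p = 0.624) from a group mostly at background.

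Odam, which lies between Csn1s2b and Csn3 and is known from tooth enamel formation, was above background on no array. The same was true of Smr3a, a salivary gene beyond Csn3. Sult1d1 was above background on 1 array, an adult mammary one, and Prol1 on 1 reprogrammed lung and 1 adult mammary array. None of the neighbours with a probe had the pattern of the 4 tested caseins, above background on 3 of 3 arrays in every group but adult lung.

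**Figure D4:**
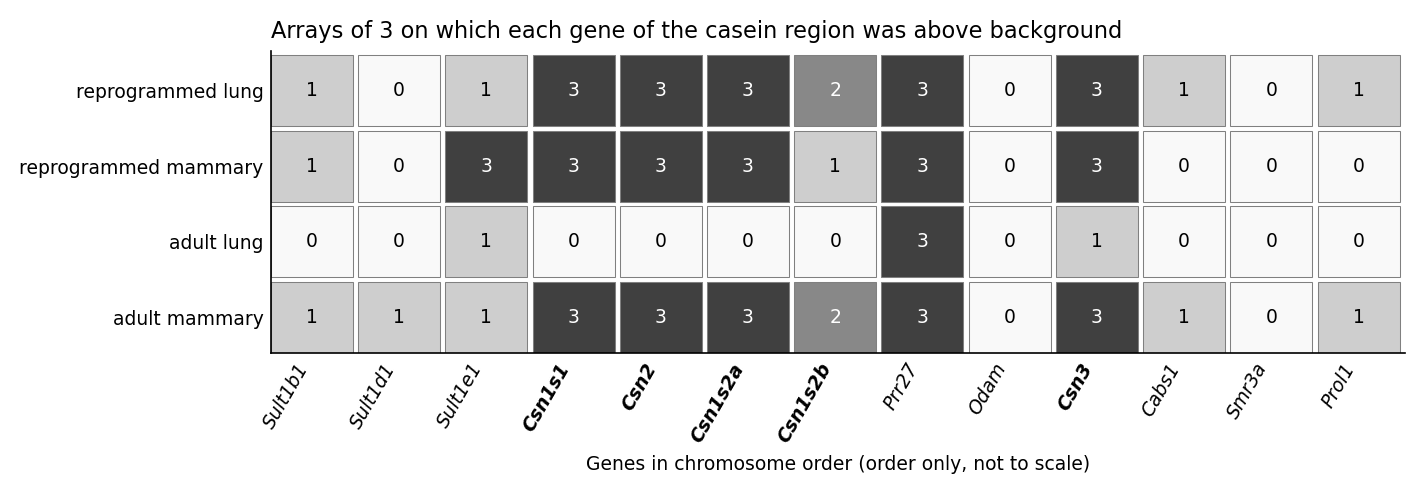
Number of arrays, of 3 in each group, on which a gene of the casein region was above background, with genes in chromosome order and not to scale. Csn1s1, Csn2, Csn1s2a and Csn3 have 3 in every group but adult lung, while the other genes have 0 or 1 but for Prr27, Sult1e1 and Csn1s2b.

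Other milk proteins were counted over a list of 16 genes, of which 14 were tested. In reprogrammed lung against adult lung, 9 were higher and 1 lower, where 13.7% of all tested probes were higher and 9.88% lower, with a median of 2.59 against 0.09. Wfdc18, Glycam1, Muc15 and Btn1a1 were not above background on every adult lung array, so they passed the filter through other groups. As for the caseins, counts and medians against adult lung therefore only describe the list. Wfdc18, a secreted protein of the whey acidic protein family, was at least 917-fold higher (log2 9.99, limma adjusted p = 2.68e-05). Glycam1, a mucin-like milk protein that lymph node venules also make, was at least 134-fold higher (log2 9.28, limma adjusted p = 0.0124), or at least 30.1-fold without replicate 1, where it had a signal of 26267 and the B cell markers below were highest. The part of other cells in this value was not tested. Muc15, a mucin of the milk fat globule, was at least 12-fold higher (log2 5.20, limma adjusted p = 0.006). Btn1a1, the butyrophilin of the milk fat globule, was at least 26.5-fold higher (log2 6.84, limma adjusted p = 0.000982). Cd36, a fatty acid transporter of the globule that endothelium and macrophages also make, was the member that fell (log2 -1.78, limma adjusted p = 0.0121).

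In reprogrammed mammary against adult lung, 9 were higher and 1 lower, where 14.6% of all tested probes were higher and 12.1% lower, with a median of 3.93 against 0.02. Lalba, the alpha-lactalbumin that forms lactose synthase, had a signal of 164, 3331 and 1058 on reprogrammed lung replicates 1, 3 and 4, and 8393, 2986 and 4547 on the reprogrammed mammary arrays. It was 67.2, 43.7 and 57.7 on adult lung, and 480, 214 and 377 on adult mammary replicates 1, 2 and 4. Lalba was higher than in adult lung by 3.57 in reprogrammed lung (limma adjusted p = 0.0125) and by 5.93 in reprogrammed mammary (limma adjusted p = 0.000668).

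In adult lung against adult mammary, 6 of the 14 were lower and 1 higher, where 16.4% of all tested probes were lower and 12.7% higher, with a median of -1.62 against -0.02. Lalba did not pass there (log2 -2.01, limma adjusted p = 0.105), unlike the 4 tested caseins. Wap, the whey acidic protein and a marker of late pregnancy and lactation, passed in no comparison with adult lung. Its signal was 27.1, 750 and 22.2 in reprogrammed lung, 72.3, 49.4 and 47.5 in reprogrammed mammary, 16.5, 12.5 and 19.1 in adult lung and 20.9, 80.8 and 40.2 in adult mammary. Its only array above 100 was reprogrammed lung replicate 3.

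The arrays with the casein peaks were also described by the other milk proteins. Reprogrammed lung replicate 3 had the group's highest level for 10 of the 13 other milk proteins with a value on every array, or 76.9%, against 25.7% of all tested probes. Adult mammary replicate 2 had its group's highest level for 3 of the 13, or 23.1%, near the 26.5% of all tested probes. Adult mammary replicate 1, the lowest of its group for Csn1s1, Csn1s2a, Csn2 and Csn3, had the highest level for 7 of the 13. That is 53.8%, against 27.6% of all tested probes. Each of these counts comes from 1 array and was not tested.

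Lactogenic signalling and casein transcription were described with 16 genes, all tested. In reprogrammed lung against adult lung, 7 were higher and 1 lower, where 13.7% of all tested probes were higher and 9.88% lower. In reprogrammed mammary against adult lung 7 were higher and 2 lower, where 14.6% of all tested probes were higher and 12.1% lower. The 1 and 2 genes that were lower are near those shares. Of the higher genes, Esr1 was not above background on every adult lung array, so it passed the filter through other groups. Prlr, the prolactin receptor, was higher by 5.40 (limma adjusted p = 0.000242) in reprogrammed lung and by 7.32 (limma adjusted p = 3.21e-05) in reprogrammed mammary. Its signal was 579, 2638 and 6107 in reprogrammed lung, 10300, 5636 and 12598 in reprogrammed mammary, 30.3, 52.9 and 37.9 in adult lung, and 8465, 4990 and 8761 in adult mammary. Prlr did not peak on the arrays where Csn1s1 did: adult mammary replicate 2 was the lowest of its group.

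The steroid receptors Esr1 and Pgr were higher by 4.65 (limma adjusted p = 0.000173) and 2.97 (limma adjusted p = 0.00893) in reprogrammed lung than in adult lung. Gata3, a factor of luminal cells, was higher by 2.88 (limma adjusted p = 4.95e-05). Elf5, a transcription factor of the secretory alveolar lineage, was higher by 2.63 (limma adjusted p = 0.00878). Its signal was 63.9, 562 and 313 in reprogrammed lung, 528, 335 and 506 in reprogrammed mammary, 17.2, 33.1 and 40.8 in adult lung and 417, 762 and 542 in adult mammary. Elf5 was highest on reprogrammed lung replicate 3, as Csn1s1 was, while adult mammary replicates 2 and 4 were level once scaled, at 0.29 and 0.33 (log2).

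Jak2, the kinase under the prolactin receptor, was higher by 1.01 in reprogrammed lung (limma adjusted p = 0.00677) than in adult lung. Stat5a was higher by 1.59 (limma adjusted p = 0.00429), without reprogrammed lung replicate 4, whose spot was marked as an outlier. In reprogrammed mammary 2 of 3 arrays of Stat5a were left out for that reason, so its call there rests on 1 array, assumed to vary like the other groups. Nr3c1, the glucocorticoid receptor, was the gene that fell, by 0.91 in reprogrammed lung (limma adjusted p = 0.00494). Stat5b, Cebpb and Nfib, which also act on casein promoters, differed by 0.17, 0.29 and -0.01 in reprogrammed lung, with limma adjusted p-values from 0.559 to 0.994.

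Between reprogrammed lung and adult mammary, 0 of the 14 milk proteins and 0 of the 16 signalling genes passed limma's test, where 0.0189% of all tested probes did. The same was true of reprogrammed mammary against adult mammary, where 0.00315% of all tested probes passed. With shares this small, counts of 0 do not describe how alike the groups were in these genes. In adult lung against adult mammary, 7 of the 16 signalling genes were lower, where 16.4% of all tested probes were. The 2 higher ones, a share near the 12.7% of all tested probes, were Nr3c1 (log2 0.77, limma adjusted p = 0.00962) and Socs2 (log2 0.98, limma adjusted p = 0.0163), a feedback inhibitor of the prolactin pathway.

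**Figure D5:**
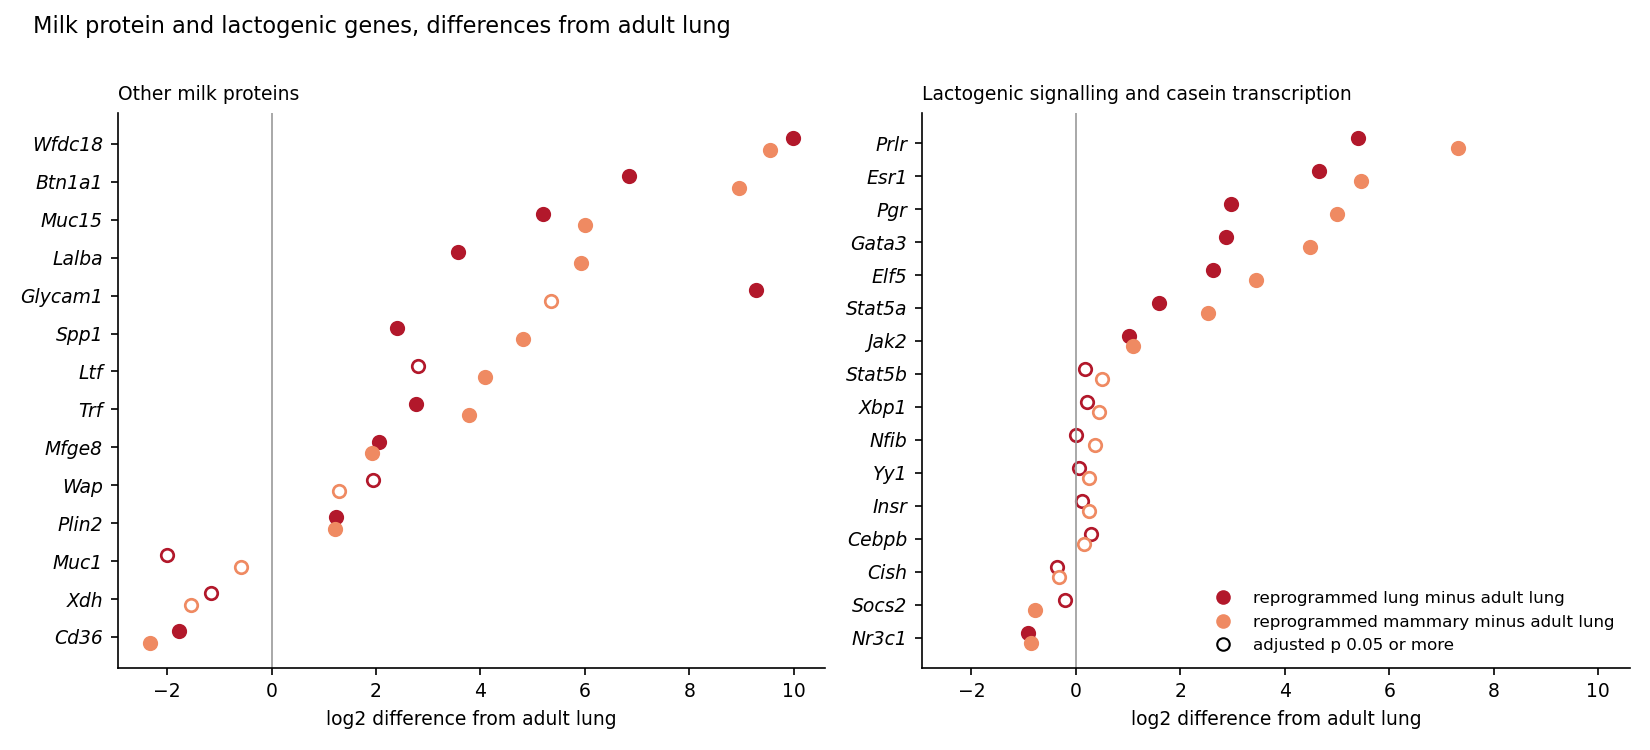
Log2 differences from adult lung of the tested genes of 2 lists, other milk proteins on the left and lactogenic signalling on the right, for reprogrammed lung and reprogrammed mammary. Filled points have an adjusted p under 0.05. Wfdc18, Btn1a1, Muc15 and Lalba are filled on the left in both comparisons, and Prlr, Esr1, Pgr, Gata3, Elf5, Stat5a and Jak2 on the right, with Stat5a in reprogrammed mammary resting on 1 array.

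Casein phosphorylation, folding and calcium loading were described with 10 tested genes. Of these, 1 was higher and 0 lower in reprogrammed lung than in adult lung, where 13.7% of all tested probes were higher and 9.88% lower. In reprogrammed mammary 2, Fam20c and the calcium sensor Stim1, were higher and 0 lower, where 14.6% were higher and 12.1% lower. Fam20c, the kinase that phosphorylates caseins in the Golgi, was higher by 0.89 in reprogrammed lung (limma adjusted p = 0.0135) and by 0.74 in reprogrammed mammary (limma adjusted p = 0.0277), and was lower in adult lung than in adult mammary (log2 -1.01, limma adjusted p = 0.00604). Atp2b2, the calcium pump that loads milk, differed from adult lung by -0.37 and -0.83 without passing (limma adjusted p = 0.487 and 0.0981).

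Cell markers moved with the caseins in part. The 6 measured markers of alveolar luminal cells other than Csn3 had a summed signal of 1335, 11671 and 6004 on reprogrammed lung replicates 1, 3 and 4, and 8380 to 16323 in reprogrammed mammary. The sum was 709 to 979 in adult lung, where 1 of the 6 was above background on no array, and 4286 to 6330 in adult mammary. This list shares Elf5, Lalba and Btn1a1 with those above. In adult mammary the mean log2 level of these markers was 0.88, 0.45 and 0.60 on replicates 1, 2 and 4. By this measure they were lowest on replicate 2, where Csn1s1, Csn1s2a and Csn2 were highest. Their summed signal, which is not scaled between arrays, was instead highest on replicate 2, at 6330 against 5071 and 4286 on replicates 1 and 4. The place of replicate 2 thus depends on the measure.

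Reprogrammed lung replicate 1 had a pan-epithelial summed signal of 9910, against 61362 and 98232 on replicates 3 and 4. Its 5 B cell markers averaged 3.24, against -3.16 and -2.87 on replicates 3 and 4. The B cell markers ran from -3.29 to 0.66 in reprogrammed mammary, from -1.05 to -0.75 in adult lung and from -3.37 to -0.09 in adult mammary. Adipocyte markers averaged from -2.59 to -0.27 in reprogrammed lung, from -1.67 to -0.07 in reprogrammed mammary, from -3.37 to -3.01 in adult lung and from -1.27 to -0.89 in adult mammary. Reprogrammed lung replicate 4 had epithelial markers as high as replicate 3 and yet the group's lowest Csn1s1, Csn1s2a and Csn2. The part of cell content in the casein levels was not tested.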

How the data were processed

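Messenger RNA was measured on 12 arrays. The authors deposited scanner output whose intensity values, per the file headers, come from Agilent Feature Extraction 10.5.1.1 with the background subtracted, whereas the submitters' processing notes give version 10.1. The authors also deposited log2 values in a series matrix, used as an alternative.

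A probe's level was its log2 processed intensity after the log2 of the 75th percentile of that array was taken off, without spots marked as outliers (91 to 280 per array). Of 41174 probes, 31767 were well above background on all 3 arrays of at least 1 group and were tested. A mean for each of 4 groups was estimated by limma 3.58.1 (R 4.3.3), with two-sided p-values adjusted by the Benjamini-Hochberg method over all tested probes and a threshold of 0.05. The fit was tested on simulated data. Intervals are at 95%, and the number of arrays limits the precision.

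The casein genes and the gene lists were chosen with earlier results of these data known. Named were the 5 caseins, examples of each list by size of difference, neighbours on the chromosome and genes with similar profiles. Further list members were named for their role after their values were seen. Alternatives covered normalization, background correction, filters, array weights, replicate and slide blocks, and each array left out. The files held no mean signal, so normexp (offset 50) used the median signal. Deviations from the group means had correlations between -0.53 and 0.32 for same-numbered arrays, and up to 0.64 for differently numbered ones. These values cannot tell whether the numbers pair samples, and the reported fit has no pairing. The 5 slides, told apart by their barcodes, were taken as the batches.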

Additional observations from a re-analysis of the deposited data

Results flagged for a closer look

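Csn1s1 and Csn3 were singled out because the reprogrammed minus adult change differed between the lung and mammary labels in a test of the difference itself. The change of lung exceeded that of mammary by 8.83 on the log2 scale for Csn1s1 (limma adjusted p = 0.0292) and by 8.66 for Csn3 (limma adjusted p = 0.00163). Adult lung was at background on 3 of 3 arrays for Csn1s1 and on 2 of 3 for Csn3, and with those spots raised to the lowest signal above background the differences were at least 6.62 and 7.22. Both genes passed the filter through the other 3 groups. In both genes all 3 reprogrammed lung arrays lay above all 3 adult lung arrays, while the reprogrammed mammary minus adult mammary differences, -0.18 and 1.15, did not pass. Over the alternatives the adjusted p ran from 0.00554 to 0.171 for Csn1s1 and from 0.000641 to 0.0338 for Csn3. Groups of 3 arrays were not searched for outlying arrays.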

How the results depend on the processing

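Over 28 alternatives, 752 values of single caseins were compared: 664 kept direction and side of the threshold, 26 lost the call, 13 gained it and 49 changed sign. All 49 concern differences among reprogrammed lung, reprogrammed mammary and adult mammary, none of which passed under any alternative, and the cause was not tested. Every difference from adult lung kept its sign.

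Caseins called. With normexp and quantile normalization 2 caseins were called in adult lung against adult mammary, in place of 4, and 1 in reprogrammed lung against adult lung, in place of 3. For the difference of the changes, 2 in the reported fit, array weights gave 4, and 1 was left with normexp, the pan-epithelial mean subtracted, the replicate block, the slide as a fixed block, the series matrix, or without slide 1, with 1 to 3 when single arrays were left out. In each of these Csn3 was the gene left. Csn2 in adult lung against adult mammary lost its call in 9 of 27 alternatives (adjusted p up to 0.169).

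Sign changes, as log2 differences. Reprogrammed lung minus adult mammary: Csn1s1 0.80 with array weights, 0.54 with the pan-epithelial mean subtracted, 0.35 without adult mammary 4 and reprogrammed lung 1, and -2.73 to 0.42 leaving out single arrays; Csn1s2a -0.71 without slide 1 and -2.07 to 1.73 leaving out single arrays; Csn2 0.99 with weights, 0.29 with the pan-epithelial mean and -3.74 to 0.84; Csn3 0.80 with weights, 1.26 with the pan-epithelial mean, 0.14 with the slide block, 1.11 without the 2 arrays and -0.66 to 0.73. Reprogrammed lung minus reprogrammed mammary: Csn1s1 0.78 with weights, 0.61 with the pan-epithelial mean, 0.033 with the replicate block, 0.18 without the 2 arrays and -2.55 to 0.60 leaving out single arrays; Csn1s2a 0.67, 0.30 and 0.12 under the first 3 of these and -3.19 to 0.60; Csn2 -0.17 with quantile normalization, -1.16 with the slide block, -2.54 without slide 1 and -2.54 to 2.05; Csn3 0.0057 with the pan-epithelial mean. Reprogrammed mammary minus adult mammary: Csn1s1 0.019 with weights, 1.01 with the slide block, 0.17 without the 2 arrays, 0.97 without slide 1 and -1.67 to 0.97 leaving out single arrays; Csn1s2a -0.060 with the replicate block and -0.14 to 2.48; Csn2 0.41 with the slide block, 0.17 without slide 1 and -2.68 to 0.17.

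Probes called. For adult lung against adult mammary (9239 reported), the slide block gave 3684, no slide 1 gave 4789 and the pan-epithelial mean 29216 (29092 higher and 124 lower, against 4021 and 5218). For reprogrammed lung against adult lung (7493, with 4353 higher and 3140 lower), the replicate block gave 4862, no slide 1 gave 4030, a fit of the 2 groups alone 4103 and the pan-epithelial mean 12535 (307 higher and 12228 lower). For reprogrammed mammary against adult lung (8465, with 4622 higher and 3843 lower), weights gave 16308, the 2 groups alone 14088, the slide block 3328 and the pan-epithelial mean 29019 (177 higher and 28842 lower). For reprogrammed lung against adult mammary (6), it was 0 with either block or the 2 groups alone, 1 with normexp or the pan-epithelial mean, 3 with weights, no filter, 1 probe a gene, the series matrix or no slide 1, 10 with quantile normalization, 18 without the 2 arrays and 2 to 362 leaving out single arrays, the highest without reprogrammed lung replicate 4. For reprogrammed mammary against adult mammary (1), it was 0 with quantile normalization, either block or no slide 1, 2 with normexp or the 2 groups alone, 3 with the series matrix, 9 for probes above background on all arrays, 112 without the 2 arrays, 509 with weights and 1 to 55 leaving out single arrays. For reprogrammed lung against reprogrammed mammary (1), it was 0 with quantile normalization, the series matrix, probes above background on all arrays, either block, a variance trend, no slide 1 or the 2 groups alone, 2 with no filter, 3 with weights, 4 with the pan-epithelial mean, 5 without the 2 arrays, 17 with normexp and 0 to 181 leaving out single arrays. For the difference of the changes (4197), the slide block gave 1698, the replicate block 1543, no slide 1 gave 1482, the pan-epithelial mean 1106 (43 higher and 1063 lower), weights 7243, leaving out the 2 arrays 7486 and leaving out single arrays 2485 to 6887.

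With the replicate block, the difference of the changes was 10.25 for Csn1s1 (limma adjusted p = 0.0768) and 8.40 for Csn3 (limma adjusted p = 0.0106), and no other casein call changed. No casein was above background on all arrays, so that filter gave no casein value. None had another probe, and the fit with 1 probe a gene called as many caseins in each comparison as the reported fit. Leaving out slide 1 was chosen after seeing the data. Signals near background limit Csn1s2b and all adult lung values.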

Other observations

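Glycam1, a mucin-like protein of milk that high endothelial venules of lymph nodes also make, had a signal of 26267, 1444 and 126 on reprogrammed lung replicates 1, 3 and 4, and 125, 419 and 37.6 on the reprogrammed mammary arrays. It was 2.71, 1.89 and 1.89 on adult lung, and 6.61, 325 and 2032 on adult mammary replicates 1, 2 and 4. Its highest reprogrammed lung array was thus replicate 1, where B cell markers were highest, and not replicate 3, where the caseins were.

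Of the 4 tested relatives of the caseins within the secretory calcium-binding phosphoproteins, 1 was higher in each reprogrammed group than in adult lung. Over all tested probes, 13.7% were higher in reprogrammed lung and 14.6% in reprogrammed mammary. A list of 4 genes is too short to read 1 call against these shares. The gene was Spp1, the osteopontin of milk. It was higher by 2.41 in reprogrammed lung (limma adjusted p = 0.0115) and by 4.82 in reprogrammed mammary (limma adjusted p = 0.000207), with a signal of 534, 2163 and 3458 in reprogrammed lung, 14776, 6267 and 9451 in reprogrammed mammary, 267, 222 and 219 in adult lung and 417, 437 and 1043 in adult mammary. Between reprogrammed mammary and adult mammary, Spp1 differed by 4.14 (limma adjusted p = 0.0606) and Lalba by 3.92 (limma adjusted p = 0.189), and neither passed.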
